A study of Homo sapiens with 3 samples.

Results

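SWI/SNF is a family of protein complexes that use ATP to slide or remove nucleosomes, and 10 genes of it are described here across the 3 libraries of a pooled knockout screen. They are the catalytic subunits SMARCA4 and SMARCA2, the core subunits SMARCB1, SMARCC1, SMARCC2, SMARCD1 and SMARCE1, the BAF-specific subunits ARID1A and ARID1B, and the actin-related subunit ACTL6A. Members were chosen by name as core and BAF-specific subunits with their paralog pairs, and every guide assigned to them was taken, which gave 30 of 62916 guides, 3 for each gene. The choice was made with earlier results of these data known, so the shares of members given below describe the set and do not test it. The screen used the established human line NUGC3, from a gastric cancer, with a GeCKO library, so that a guide RNA in each cell sends the nuclease Cas9 to a single target gene. The groups were a day 0 culture, titled as DMSO too, a day 14 culture grown with DMSO, the drug solvent, and a day 14 culture grown with 10 nM RTX, each with 1 library of amplified genomic DNA. What RTX stands for is not given in the labels, while the series title concerns antifolate drugs. Group names follow the sample titles, because a treatment note gives 14 days of DMSO to the day 0 group. All groups share 1 cell line, and the guide names carry the prefix of 1 library set, so every value rests on these 3 guides per gene in 1 line.

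Each SWI/SNF complex holds a single ATPase, either SMARCA4 or SMARCA2, so these paralogs are alternatives to each other. SMARCC1 and SMARCC2 form the scaffold around which the core assembles, SMARCD1 joins the core early, and SMARCB1 contacts the nucleosome. ARID1A and ARID1B are alternative subunits that define the BAF form, and ARID1A is often mutated in gastric cancer. ACTL6A is not exclusive to SWI/SNF, since it is also a subunit of the INO80 and NuA4-TIP60 complexes.

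Reads of a guide reflect how many cells still carry it. Totals were 16547572 reads (day 0), 18805737 (DMSO) and 17344507 (RTX), and the median guide had 230, 251 and 232 of them. The 30 SWI/SNF guides had a median of 248.5 reads at day 0 (lowest 0, highest 655), 196.5 in DMSO (5 to 675) and 279 in RTX (5 to 687). A ratio is given as log2 of the deposited normalized reads with 5 added to both sides, for guides whose day 0 value was 10 or more, and the median of these ratios over a gene's guides is called its score. In all, 29 of the 30 guides passed that filter. The exception was an ARID1B guide with 0 reads at day 0 and 5 in each day 14 library, so ARID1B is scored on 2 guides. Guides without a genomic target show the drift of abundance without a knockout. The middle 95% of the 991 such guides that passed the filter ran from -1.31 to 1.17 in RTX over DMSO, from -0.97 to 1.11 in DMSO over day 0 and from -1.01 to 1.05 in RTX over day 0. Their medians were -0.10, 0.19 and 0.11 in the same order, so a ratio of 0 is not their centre. With 1 library per condition, no difference below has a replicate check. Intervals are 95% and exact (Clopper-Pearson), from the reads without the added 5, and cover counting error only, since PCR reads without molecular identifiers are not independent molecules.

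DMSO at day 14 against day 0 asks which knockouts were lost without drug. Guides against ACTL6A, SMARCB1 and SMARCD1 were less abundant at day 14, with scores of -1.43, -1.10 and -1.09, while those against SMARCC1 were more abundant, with a score of 0.54. The other 6 genes scored between -0.45 and 0.18. A gene counted as past the fold rule when its score was at least 1 in size and all its guides had that sign, and 3 of 10 members were past it downwards, against 2.31% of 20150 genes. None of the members was past it upwards, against 0.0596% of all genes. The median score of the members was -0.43, and that of all genes was 0.00. All scored guides were above 0 for 1 of 10 members, against 14% of all genes, and below 0 for 5, against 14.6%.

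A second measure asked whether a gene's guides agree, by ranking all guides and combining the ranks within each gene (robust rank aggregation with exact p, one-sided, with Benjamini-Hochberg adjustment across 20150 genes). No member passed an adjusted exact p of 0.05 for loss in DMSO, where 0.199% of genes did, and the lowest value was 0.433, for ACTL6A. At an unadjusted exact p under 0.05, the 3 members were ACTL6A, SMARCD1 and SMARCB1, and 6.73% of all genes passed. For gain in DMSO no member passed at either level (0% of genes at the adjusted level, 5.33% at the unadjusted), and the lowest adjusted exact p was 0.970, for SMARCC1. These p compare 2 libraries and cannot see variation between cultures.

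RTX against DMSO at day 14 asks which knockouts did better or worse in the drug. Guides against ACTL6A and SMARCB1 were more abundant in RTX, with scores of 1.84 and 1.30. SMARCA4 and SMARCD1 scored 0.81 and 0.59, but each had guides on both sides of 0. ARID1B scored 0.52, ARID1A 0.46 and SMARCC2 0.14. The lowest scores were -0.25 for SMARCA2, -0.16 for SMARCC1 and -0.07 for SMARCE1. By the fold rule, 2 of 10 members were past it upwards, against 1.8% of all genes, and 0 downwards, against 0.462%. The median of the members was 0.49, and that of all genes was 0.00. All scored guides were above 0 for 4 of 10 members, against 13.9% of all genes, and below 0 for 1, against 13.3%.

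By the guide-rank test no member passed in RTX over DMSO. The lowest adjusted exact p for enrichment was 0.240, for SMARCB1, followed by 0.322 for ACTL6A, and 0.0794% of genes passed. Both were under 0.05 before adjustment, as were 5.88% of all genes. For depletion the lowest adjusted exact p was 0.994, for SMARCD1, where 0% of genes passed, and at the unadjusted level the count was 0 members and 5.19% of genes. ACTL6A had the 80th highest score of 20150 genes and SMARCB1 the 255th. This comparison and DMSO over day 0 share the DMSO library, so a guide with few reads there is low in the one and high in the other.

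RTX at day 14 against day 0 does not use the DMSO library but shares the day 0 library with DMSO over day 0. A guide with few reads at day 0 is thus high in both of these comparisons. In RTX over day 0 no member was past the fold rule in either direction. The background was 0.481% of genes upwards and 0.908% downwards. SMARCA4 had the highest score, at 0.50, followed by ARID1A at 0.41, ACTL6A at 0.34, SMARCA2 at 0.31, SMARCC1 at 0.22, SMARCB1 at 0.21 and ARID1B at 0.11. With the mean of guides, SMARCA4 was at 0.19, below ARID1A at 0.58, SMARCB1, SMARCA2, ACTL6A and SMARCC1. SMARCD1 had the lowest, at -0.76, with SMARCE1 at -0.46 and SMARCC2 at -0.16. The median of the members was 0.22, and that of all genes was 0.00. All scored guides were above 0 for 4 of 10 members, against 14% of all genes, and below 0 for 2, against 14%. In the guide-rank test, no member passed after adjustment for enrichment (0.0794% of genes) or depletion (0%). The lowest adjusted exact p was 0.694, for depletion of SMARCD1, which was under 0.05 before adjustment, as were 5.68% of all genes. For enrichment no member was under 0.05 before adjustment, against 5.44% of all genes.

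SMARCA4, the ATPase also called BRG1, had 3 guides that did not move together. They had 409, 91 and 115 reads (day 0), 363, 203 and 32 (DMSO) and 582, 174 and 63 (RTX). In DMSO over day 0 their log2 ratios were -0.33, 0.96 and -1.84, so 1 guide was lower and another higher. The guide at -1.84 (interval -2.62 to -1.43) lies outside the range of the non-targeting guides. Against the DMSO library, the RTX ratios of the same guides were 0.81, -0.08 and 1.00, and against day 0 they were 0.50, 0.89 and -0.83. The last of these guides was therefore below its day 0 level at day 14 with and without drug, and the middle guide above it in both.

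SMARCA2, also called BRM, is the alternative ATPase, and its guides stayed within the range of the non-targeting guides in every comparison. They had 261, 320 and 228 reads (day 0), 330, 522 and 229 (DMSO) and 244, 399 and 400 (RTX). The log2 ratios in RTX over DMSO were -0.29, -0.25 and 0.93, and those in DMSO over day 0 were 0.18, 0.54 and -0.15. The highest value came from the last guide, whose reads were level between day 0 and DMSO and higher in RTX. In RTX over day 0 the guides stood at -0.10, 0.31 and 0.79. Side by side, the scores of SMARCA4 and SMARCA2 were -0.33 and 0.18 in DMSO over day 0, and 0.81 and -0.25 in RTX over DMSO. The guide ranges of the paralogs overlap in each comparison, and the difference between them was not tested.

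SMARCB1, also called SNF5 or INI1, is the core subunit whose loss defines malignant rhabdoid tumours. Its guides had 97, 293 and 367 reads (day 0), 103, 110 and 188 (DMSO) and 194, 342 and 427 (RTX). All 3 were higher in RTX than in DMSO, but the loss in DMSO came from the last pair. Their log2 ratios in DMSO over day 0 were -1.53 (interval -1.90 to -1.25) and -1.10 (-1.39 to -0.87), while the first guide stood at -0.07 (-0.49 to 0.34). In RTX over DMSO the guides stood at 1.02 (0.70 to 1.41), 1.73 (1.46 to 2.10) and 1.30 (1.07 to 1.58). The same pair lay above that range of the non-targeting guides. Relative to day 0, the RTX ratios of that pair were 0.21 and 0.21, and the first guide stood at 0.96. Taken as a mean over guides instead of a median, the loss in DMSO was -0.90, short of the fold rule.

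ACTL6A, also called BAF53A, is the actin-related subunit that joins the ATPase arm of the complex. Its guides had 352, 456 and 655 reads (day 0), 143, 175 and 675 (DMSO) and 509, 580 and 687 (RTX). The first 2 guides were low in DMSO and high in RTX, whereas the last was nearly level across the 3 libraries. For DMSO over day 0 the log2 ratios were -1.43 (interval -1.75 to -1.17), -1.51 (-1.80 to -1.29) and -0.11 (-0.27 to 0.04). In RTX over DMSO they were 1.93 (1.70 to 2.25), 1.84 (1.62 to 2.12) and 0.16 (0.01 to 0.32). Against day 0 the RTX ratios were 0.52, 0.34 and 0.06, all above 0 and within the range of the non-targeting guides. The gene's score thus rests on 2 guides that agree and 1 that stayed near 0.

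SMARCD1, also called BAF60A, links the core to transcription factors and was the member with the fewest reads among genes with 3 scored guides. Read numbers were 155, 49 and 127 (day 0), 118, 14 and 64 (DMSO) and 46, 27 and 90 (RTX). All 3 guides were below their day 0 level in both day 14 libraries. Over day 0 the DMSO log2 ratios were -0.53, -1.64 and -1.09, and the RTX ones were -1.66, -0.76 and -0.48. The guide with the largest loss was not the same in the 2 day 14 libraries. RTX over DMSO accordingly gave values of both signs, namely -1.14 (interval -1.74 to -0.72), 0.86 (0.11 to 2.13) and 0.59 (0.15 to 1.12). With 20 added in place of 5, the score in DMSO over day 0 was -0.94 and no longer past the fold rule.

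The scaffold paralogs SMARCC1 (BAF155) and SMARCC2 (BAF170) lay on opposite sides of 0 in DMSO. The SMARCC1 guides had 228, 156 and 345 reads (day 0), 372, 292 and 480 (DMSO) and 327, 184 and 389 (RTX). All 3 were above their day 0 level in both day 14 libraries, with log2 ratios of 0.54, 0.73 and 0.31 in DMSO and 0.50, 0.22 and 0.16 in RTX. None of these exceeded the range of the non-targeting guides. In RTX over DMSO the SMARCC1 guides stood at -0.05, -0.52 and -0.16.

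For SMARCC2, the reads were 249, 467 and 267 (day 0), 205, 487 and 181 (DMSO) and 248, 420 and 181 (RTX). Over day 0, DMSO gave log2 ratios of -0.43, -0.10 and -0.70, and RTX gave -0.01, -0.16 and -0.56, all below 0. RTX over DMSO gave 0.41, -0.07 and 0.14. The guide ranges of SMARCC1 and SMARCC2 did not overlap in DMSO over day 0 (0.31 to 0.73 against -0.70 to -0.10) or in RTX over day 0 (0.16 to 0.50 against -0.56 to -0.01). These comparisons share the day 0 library, so the second is not an independent repeat of the first. The guides of both genes lay inside the spread of guides without a target, and the difference was not tested.

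SMARCE1, also called BAF57, carries an HMG domain that binds DNA, and its guides changed little between the day 14 libraries. Reads were 248, 244 and 363 (day 0), 383, 190 and 296 (DMSO) and 302, 177 and 256 (RTX). In RTX over DMSO the log2 ratios were -0.20, 0.04 and -0.07, the narrowest guide range of the 10 members. Over day 0 the first guide was higher and the others lower, with 0.46, -0.51 and -0.45 in DMSO and 0.27, -0.46 and -0.50 in RTX.

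ARID1A, or BAF250A, is the large DNA-binding subunit of BAF. Its guides had 256, 488 and 151 reads (day 0), 303, 467 and 170 (DMSO) and 343, 584 and 326 (RTX). Abundance was nearly level in DMSO, with log2 ratios of 0.08, -0.22 and 0.01. Each of the 3 was more abundant in RTX than in DMSO, at 0.31, 0.46 and 1.06, and higher than at day 0, at 0.41, 0.25 and 1.08. The values over DMSO all lay inside the range of the non-targeting guides. Of those over day 0, only the last lay above it. The last guide, at 1.08 (interval 0.82 to 1.39), was the only scored member guide at 1 or more in RTX over day 0. Scaled to the non-targeting guides, it was under 1.

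ARID1B, or BAF250B, is the paralog that can take the place of ARID1A. Its guides had 107, 171 and 0 reads (day 0), 90, 138 and 5 (DMSO) and 89, 241 and 5 (RTX). The scored guides were at -0.39 and -0.45 in DMSO over day 0, at 0.12 and 0.92 in RTX over DMSO, and at -0.26 and 0.48 in RTX over day 0. The scores of ARID1A and ARID1B were thus 0.46 and 0.52 in RTX over DMSO, with overlapping guide ranges. In DMSO over day 0 they were 0.01 and -0.42, and the ranges of -0.22 to 0.08 and -0.45 to -0.39 did not overlap. These guides all lay inside the range of the non-targeting guides, and the counting intervals of the ARID1A and ARID1B guides overlap. The difference between the paralogs was not tested.

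Summed over guides and divided by the library total, ACTL6A had 88.4 reads per 1000000 at day 0 (interval 83.9 to 93.1), 52.8 in DMSO (49.6 to 56.2) and 102 in RTX (97.7 to 107). SMARCB1 had 45.7 (42.5 to 49.1), 21.3 (19.3 to 23.5) and 55.5 (52.1 to 59.1) in the same order. For both, DMSO was the low library and RTX the highest. SMARCD1 had 10.4 in DMSO (9.01 to 12.0) and 9.40 in RTX (8.01 to 11.0), which overlap and lie below its day 0 interval of 17.9 to 22.3. ARID1A had 54.1, 49.98 and 72.2 in the 3 libraries, where the intervals of day 0 (50.6 to 57.7) and DMSO (46.8 to 53.3) overlap and that of RTX (68.3 to 76.4) lies above both. SMARCA4 had 37.2 (34.3 to 40.2), 31.8 (29.3 to 34.5) and 47.2 (44.0 to 50.6), with RTX highest. SMARCC1 was highest in DMSO, with 44.1, 60.8 and 51.9. RTX was also highest for SMARCA2 (48.9, 57.5 and 60.1), where the DMSO and RTX intervals overlap. The same held for ARID1B with all its guides (16.8, 12.4 and 19.3), where the day 0 and RTX intervals overlap. SMARCC2 (59.4, 46.4 and 48.9) and SMARCE1 (51.7, 46.2 and 42.4) were highest at day 0. These sums weight a gene's most abundant guide most.

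At the level of single guides, 7 of 29 SWI/SNF guides were at a log2 ratio of 1 or more in RTX over DMSO, against 7.89% of all guides and 4.24% of the non-targeting guides. They were 3 of SMARCB1, 2 of ACTL6A and 1 each of SMARCA4 and ARID1A. With 20 in place of 5 added, the count was 4. At -1 or less there was 1, of SMARCD1, against 5.43% of all guides and 6.05% of the non-targeting guides. For DMSO over day 0, 7 of 29 were at -1 or less, against 7.52% of all and 2.02% of the non-targeting guides. These were 2 each of ACTL6A, SMARCB1 and SMARCD1 and 1 of SMARCA4. None was at 1 or more there, against 2.32% of all and 3.53% of the non-targeting guides. RTX over day 0 had 1 in each direction, the ARID1A guide above and a SMARCD1 guide below, against 3.18% and 5.32% of all guides and 3.03% and 2.72% of the non-targeting guides.

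The authors' deposited tables hold their own calls per guide at a false discovery rate under 0.05, from a model of single libraries. Of RTX over DMSO, the authors' deposited table has calls for 9 of the 30 SWI/SNF guides as higher (13.9% of all guides) and 0 as lower (4.29%). In their deposited table of DMSO over day 0 it was 5 lower (5.84% of all guides) and 3 higher (9.77%), the latter from SMARCA2, SMARCA4 and SMARCC1. For RTX over day 0 their deposited table had 6 higher (11% of all guides) and 1 lower (4.04%). Taking the spread among non-targeting guides as the error, the exact test of edgeR, run on recovered read numbers, called 0 of 29 members higher in RTX over DMSO (0.933% of all guides) and 0 lower (0.401%). It called 1 lower in DMSO over day 0 (2.08% of all guides), the SMARCA4 guide at -1.84, with an adjusted p of 0.0469, and 0 higher (0.133%). In RTX over day 0 the same test called 0 in either direction (0.203% and 0.674% of all guides). It compares libraries, not conditions.

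The other 19 measured SWI/SNF subunits include the PBAF subunits ARID2, PBRM1, BRD7 and PHF10 and the ncBAF subunits BRD9 and GLTSCR1. Their median score was 0.12 in DMSO over day 0, 0.01 in RTX over DMSO and 0.15 in RTX over day 0. None was past the fold rule or the guide-rank test in any comparison. Their scores ran from -0.95 (GLTSCR1L) to 0.45 (ACTL6B) in DMSO over day 0 and from -0.48 (ACTB) to 0.50 (BCL7B) in RTX over DMSO. RTX over day 0 had scores from -0.92 (ACTB) to 0.81 (BRD7). SS18L2, a small relative of the subunit SS18, had 206, 109 and 166 reads (day 0), 43, 21 and 3 (DMSO) and 159, 20 and 67 (RTX). It fell in DMSO over day 0, past the fold rule, with a score of -2.29 and an adjusted exact p of 0.0145 in the guide-rank test. That p equals the lowest for loss among all 20150 genes. SS18L2 is outside the members and the lists and was picked singly by name, so its values do not describe SWI/SNF. In RTX over DMSO its score was 1.90, past the fold rule upwards, with guides from 0.06 to 3.27 (adjusted exact p = 0.309). Against day 0 the RTX score was -1.26, with guides from -2.20 to -0.37, past the fold rule downwards (adjusted exact p = 0.592).

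Other chromatin remodellers give a yardstick for these scores. In RTX over DMSO, 13 genes of the ISWI family had a median of 0.10, 18 of the CHD and NuRD group 0.09, 20 of INO80 and SRCAP 0.09 and 9 of Polycomb repressive complex 2, which opposes SWI/SNF, 0.16. CHD2 at 1.01 was past the fold rule upwards and CHD8 at -1.17 downwards. The ends of these lists were SMARCA5, an ISWI ATPase, at 1.498, above the score of SMARCB1, and YY1, a transcription factor of INO80, at -1.61, neither with all guides of the same sign. In DMSO over day 0 the medians were -0.12, 0.02, -0.31 and -0.14 in the same order. RBBP4, a histone chaperone, was past the rule downwards at -1.81. YEATS4, which like ACTL6A belongs to the NuA4-TIP60 complex, stood at -1.60 and SUZ12, a core Polycomb subunit, at -1.16, both past the rule. In RTX over day 0 the medians were -0.05, 0.18, -0.17 and -0.02, and SUZ12 alone was past the rule, at -1.14. No gene of these lists passed the guide-rank test after adjustment in any comparison.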

How the data were processed

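Genomic DNA of the 3 cultures was amplified in 2 PCR steps and sequenced, per the labels' protocols. The authors deposited a guide table for every library pair; the submitters' processing notes name MAGeCK 0.5.7 and hg19, with no read-matching step in the sources here. The values are a deposited signal, read counts divided by a size factor per library within a pair. Dividing by the value of a single read gave back whole reads within 0.1 for at least 99.9968% of values. The p-values and q-values (FDR) deposited are the authors' own. Log2 ratios used a pseudocount of 5, which understates changes of guides with few reads. The guide-rank test (top 0.25 of ranks, genes with at least 2 guides, 23 date-like names left out) was tested on simulated data. There every guide of a changed gene was given the same change, so genes with an inactive guide were not covered. Exact tests in edgeR 4.0.16, added after the data were examined, used 1 dispersion from the non-targeting guides and called 584 guides higher and 251 lower in RTX over DMSO. Alternatives changed the pseudocount, filter, scaling, guide summary, fold and ranking. All 10 members are named, other genes of the lists when past the fold rule or rank test, and SS18L2, which is in no list, singly by name. Genes at the ends of lists were named after their values were seen, and PBAF and ncBAF subunits only as examples of their list. The members and lists were chosen with earlier results of these data known. Guide sequences and genome coordinates were not used here.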

Additional observations from a re-analysis of the deposited data

How the results depend on the processing

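The fold-rule calls of SMARCB1 and ACTL6A in RTX over DMSO held under all 8 alternatives, and that of ACTL6A in DMSO over day 0 did too. Not all of these could have removed the calls. The fold threshold of 0.5 is looser, and the filter changes left the scored guides of both genes as they were. Scaling to the non-targeting guides moved these scores further from 0. With the mean of guides, ACTL6A was at -1.02 in DMSO over day 0, barely past the threshold, and at 1.31 in RTX over DMSO. SMARCD1 in DMSO over day 0 was lost with a pseudocount of 20 and SMARCB1 there with the mean of guides. A fold threshold of 0.5 added 1 member upwards in DMSO over day 0 (SMARCC1), 1 downwards in RTX over day 0 (SMARCD1) and 1 upwards in RTX over DMSO (ARID1B, for 3 in all). Of guides past a log2 ratio of 1 in RTX over DMSO, a pseudocount of 20 left 4 upwards and 0 downwards. In RTX over day 0 the count upwards was 2 without the filter and 0 when scaled to the non-targeting guides. The exact test of edgeR is another measure, which counts guides at an adjusted p under 0.05 and not past a fold. It called 0 upwards and 0 downwards in RTX over DMSO and in RTX over day 0, and 1 downwards in DMSO over day 0. The guide-rank test called 0 members under every ranking, filter and pseudocount tried. Of 210 member scores under alternatives, 0 past the fold rule changed sign and 6 others did, among them SMARCA2 in RTX over DMSO, 0.13 with the mean of guides. Counting error was widest for guides with few reads, such as the SMARCD1 guide with 14 reads in DMSO, whose ratio of 0.86 in RTX over DMSO had an interval of 0.11 to 2.13. No paired analysis was possible because each condition was 1 library. The causes of these shifts were not tested.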
